A study of Mus musculus with 16 samples.

Results

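Glycolysis splits glucose into pyruvate, and lactate dehydrogenase exchanges pyruvate for lactate. The genes described here are 32 genes of glucose and lactate transport, glycolysis, lactate production, its regulators and glycogen turnover. They were chosen by name for their known roles, but with earlier results of these data known, so the choice was not independent of them. They make up 32 of the 50600 genes listed for each library. The question addressed is how strongly, and from which parental allele, each gene was expressed in clonal neural progenitor cells (NPCs) and in astrocytes made from such cells.

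The RNA came from F1 hybrid mouse cells, with a 129/Sv mother and a Castaneus (Cast/EiJ) father, so that reads over strain differences could be given to the 129 or the Cast allele. Sequencing covered 16 libraries from 12 clones, each clone grown from a single NPC that descended from hybrid ES cells. The 5 astrocyte clones (129, C2 and G4, female, and mC3 and mE6, male) had been kept for 48 h in 1 ng/mL FGF2 and 10 ng/mL BMP4, and the 3 NPC clones F5 (female), mG2 and mG6 (male) in 10 ng/mL EGF and 10 ng/mL FGF2, with poly(A)-selected RNA and 1 library per clone. The 4 male NPC clones Ch3, Ch5, Ch7 and Ch8, in the same EGF and FGF2 medium, were sequenced from rRNA-depleted RNA with 2 libraries per clone. Astrocytes and poly(A) NPCs were never the same clone, so the cell type cannot be told apart from the set of clones. The Ch libraries were tested only against each other, because preparation and clone set cannot be told apart there. Where Ch values are set beside those of poly(A) clones, no test was run and the same limit holds. "Clone 129" below is a clone name, and "the 129 allele" is the maternal allele.

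Astrocytes are known as glycolytic cells that store glycogen and release lactate, while dividing progenitors also run glycolysis to supply biosynthesis. Several steps have alternative enzymes encoded by separate genes, such as hexokinase (Hk1, Hk2), phosphofructokinase (Pfkl, Pfkm, Pfkp), aldolase (Aldoa, Aldoc), enolase (Eno1, Eno2) and lactate dehydrogenase (Ldha, Ldhb). Many of these genes are known targets of the hypoxia-inducible factors, whose binding sites share a core of which ACGTG is 1 form.

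Between 78257443 and 93963293 reads were counted on genes in the astrocyte libraries, 69925081 to 105892734 in the poly(A) NPC libraries and 20871111 to 30920672 in the Ch libraries. Reads given to an allele numbered 26753109 to 32518327, 21555315 to 32263331 and 4193927 to 5971768 in the same order. The cells carried the markers of their labels in part. Of 11 astrocyte markers tested, 3 were higher in astrocytes than in poly(A) NPCs at an adjusted p under 0.05 (edgeR), 1 was lower and 7 were not called. Of 8 NPC markers, 2 were lower in astrocytes and 6 were not called. Gfap, the intermediate filament of astrocytes, stood at 65.4 to 1976 counts per 1000000 reads on genes (CPM) in astrocytes and 0.669 to 2.12 in NPCs, and all 6 cycling markers fell, with Mki67 at 0.487 to 2.29 against 426 to 477 CPM. Aldh1l1, another astrocyte marker, fell instead (2.49 to 11.5 against 13.9 to 23.3 CPM, adjusted p = 0.0366). Aldoc is itself a member and so is no independent marker. Some clones had a skewed allelic balance over whole chromosomal stretches. These were taken as fixed 20 Mb windows along each chromosome, not centred on a gene, so a gene can lie near the edge of its window. The median gene of the window holding Eno1 on chromosome 4 was 7.27% Cast in astrocyte clone G4. That of the window holding Slc16a1 on chromosome 3 was 65% Cast in the same clone. For Pfkfb2 on chromosome 1 it was 34.6% Cast in astrocyte clone 129 and 32.01 to 32.8% in the 4 Ch clones. Other clones were skewed too: the median gene of chromosome 18 was 0.0682% Cast in NPC clone mG2. That of chromosome 12 was 65.6% Cast in NPC clone F5 and 100% in Ch5, Ch7 and Ch8. No member lies on chromosome 12 or 18. Fits without clones 129 and G4 together were added and are given for some results only, and no such fit was made for the other skewed clones as a set.

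The 32 genes together took 0.8086 to 1.2452% of the reads on genes in astrocytes and 0.454 to 0.6279% in poly(A) NPCs. Their summed level was 7818, 9042, 8409, 9519 and 12955 CPM in astrocyte clones 129, C2, G4, mC3 and mE6, and 5968, 4285 and 6320 CPM in NPC clones F5, mG2 and mG6. Every astrocyte library was above every NPC library. With fewer cells of a kind and less RNA per cell not separable in bulk RNA, these are levels per read sequenced and not per cell. In edgeR's quasi-likelihood test over 18192 genes, with Benjamini-Hochberg adjustment and a threshold of 0.05, 16 of the 31 members with enough reads were higher in astrocytes and 0 were lower. Over all tested genes 13% were higher and 12.6% were lower. At an unadjusted p under 0.05, 20 members were higher and 1, Pkm, was lower, and DESeq2 called 18 higher and 1, Pkm again, lower. Without clones 129 and G4, 18 members were higher and 1, Hk2, was lower. The median difference of the 31 members was 0.99 on the log2 scale, against 0.08 over all tested genes. In 17 members every astrocyte library lay above every NPC library, where this held for 16.4% of all tested genes, and in 0 members did every astrocyte library lie below, against 16.3% of all genes.

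**Figure D1:**
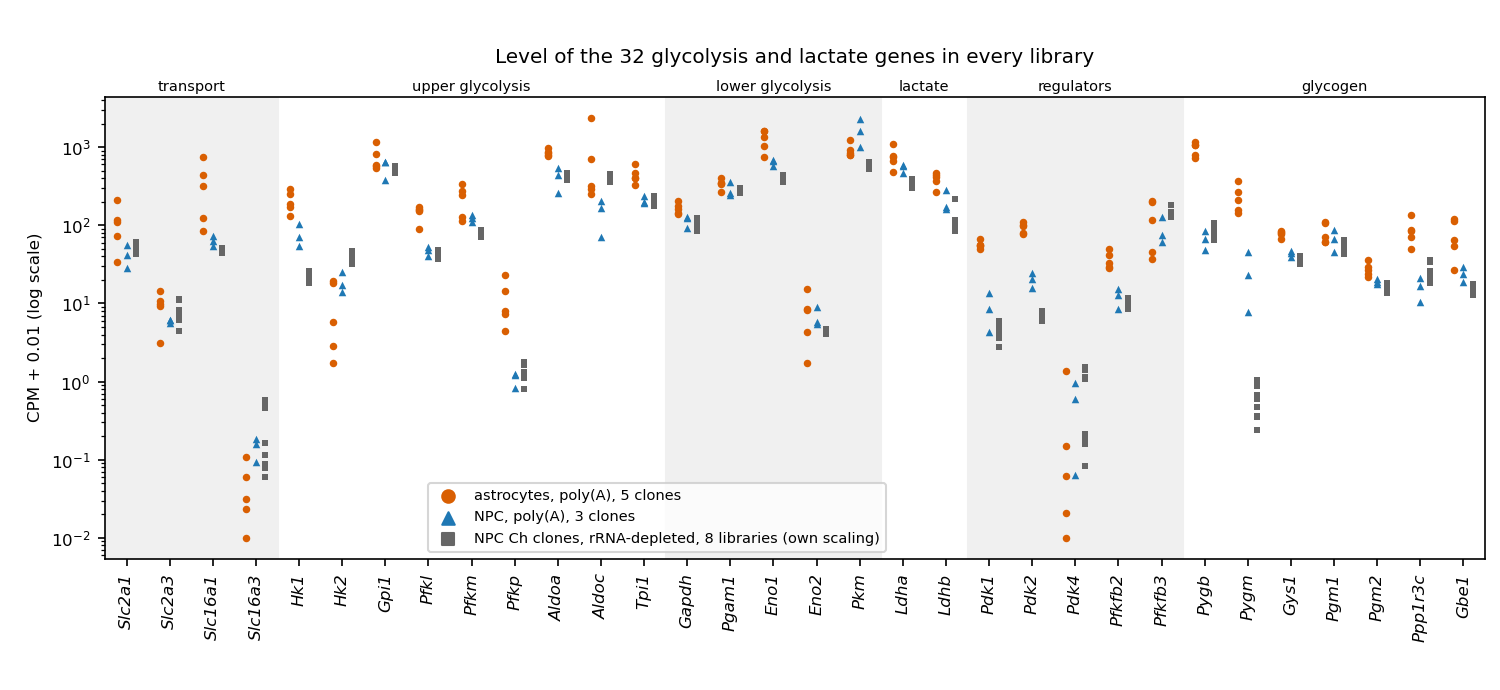
Level of each gene in each library, in CPM plus 0.01 on a log axis, for 5 astrocyte clones (circles), 3 poly(A) NPC clones (triangles) and 8 Ch libraries (squares, scaled separately). Pygb stands out with astrocytes at 730.4 to 1169 CPM and poly(A) NPCs at 48.4 to 84.4 CPM, and Slc16a3 is near 0 in all.

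**Figure D2:**
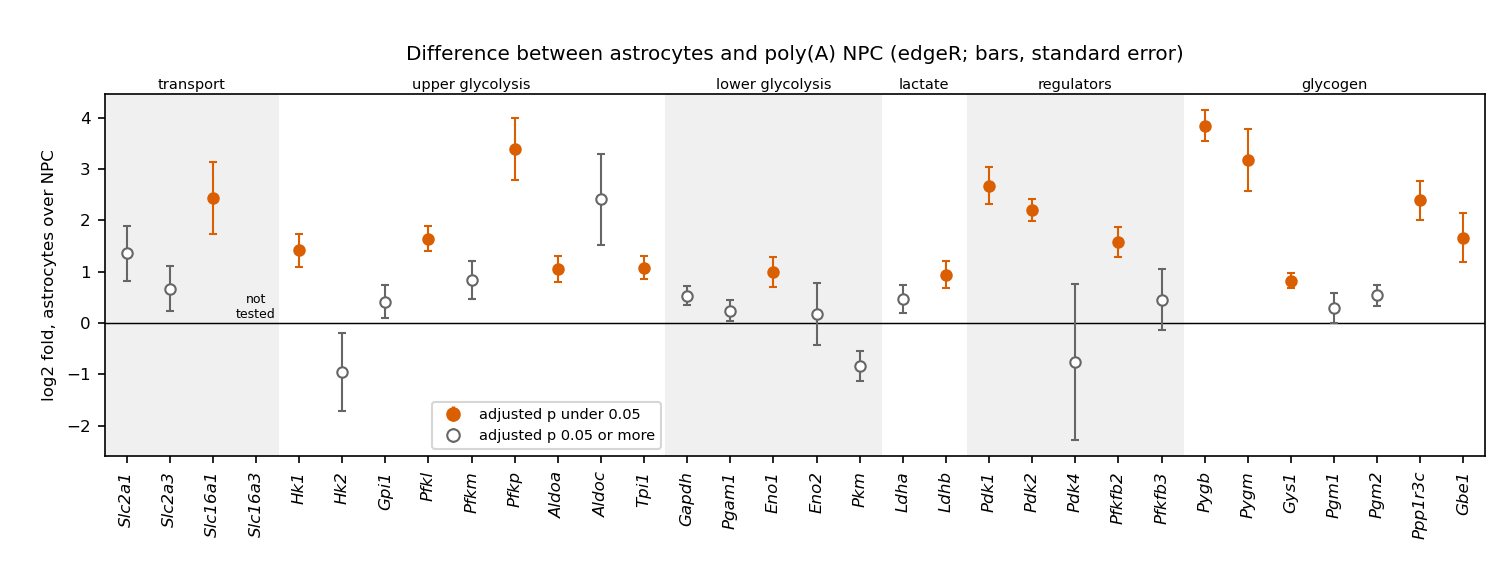
Difference between astrocytes (n = 5) and poly(A) NPCs (n = 3) for each gene as a log2 fold change, with bars for the standard error. Filled points are the 16 genes that passed the adjusted threshold, all of them above 0, and 3 of the open points (Hk2, Pkm and Pdk4) lie below 0.

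Of the transporters, Slc16a1 alone passed the test. It encodes MCT1, a proton-linked carrier of lactate and pyruvate, and its level was 84.98, 124, 439, 322 and 747 CPM in astrocyte clones 129, C2, G4, mC3 and mE6 against 72.4, 63.1 and 54.0 CPM in NPC clones F5, mG2 and mG6. The groups did not overlap, clone 129 lay just above the NPCs, and the rise was 2.44 ± 0.70 (log2, SE, adjusted p = 0.0358). This call was lost when any of clones G4, mC3, mE6, F5, mG2 or mG6 was left out, with adjusted p up to 0.117. Slc2a1, the widespread glucose carrier GLUT1, stood at 34.3, 72.0, 118, 208 and 110.0 CPM in astrocytes and 28.4, 42.0 and 56.5 CPM in NPCs, with overlapping groups and an adjusted p of 0.0931. It was called in 4 of 14 other fits (DESeq2, sex as a covariate, without clone 129, and without clones 129 and G4), with adjusted p down to 0.0234. Slc2a3, the high-affinity glucose carrier GLUT3, had 3.13 to 14.6 CPM in astrocytes and 5.65 to 6.16 in NPCs (adjusted p = 0.296). Slc16a3, the lactate exporter MCT4 of strongly glycolytic cells, was at most 0.0996 CPM in astrocytes and 0.172 CPM in NPCs and was too low to test.

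Of the 9 genes of upper glycolysis, which turns glucose into triose phosphates, 5 rose and the other 4 did not pass. Hk1, the hexokinase that commits glucose to the cell in most tissues, was at 254, 287, 189, 169 and 131 CPM in astrocytes and 71.3, 54.6 and 104.9 CPM in NPCs, a rise of 1.42 ± 0.32 (log2, adjusted p = 0.0151). Hk2, the inducible hexokinase, went the other way in the mean but not beyond its spread, at 19.4, 5.70, 18.5, 2.88 and 1.74 CPM against 17.2, 24.9 and 13.9 CPM (adjusted p = 0.388). Astrocyte clones 129 and G4 were within the NPC range of Hk2 and the other 3 astrocyte clones were below it. Without clones 129 and G4, the fall in Hk2 passed the test (adjusted p = 0.0172).

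Among the phosphofructokinases, which catalyse the committed step of glycolysis, the liver-type Pfkl rose from 40.02, 47.7 and 52.0 CPM in NPCs to 155, 88.5, 172, 159.9 and 154 CPM in astrocytes (1.65 ± 0.24, adjusted p = 0.00285). The platelet-type Pfkp rose by 3.39 ± 0.60 (adjusted p = 0.00603) from a low level, with 0.825 to 1.24 CPM in NPCs and 4.43 to 23.0 in astrocytes. The muscle-type Pfkm, at 114 to 341 CPM against 109 to 137, overlapped between the groups and did not pass (adjusted p = 0.132).

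Aldoa, the ubiquitous aldolase, stood at 766.5 to 979.5 CPM in astrocytes and 261 to 534 CPM in NPCs and rose by 1.05 ± 0.25 (log2, adjusted p = 0.0191). Aldoc, the brain aldolase and a marker of astrocytes, was at 316, 293, 250, 706 and 2383 CPM in astrocyte clones 129, C2, G4, mC3 and mE6 and at 205, 169 and 71.3 CPM in NPC clones F5, mG2 and mG6. All astrocytes were above all NPCs, but the astrocyte clones differed 9.53-fold among themselves, and the difference of 2.41 ± 0.88 did not pass (adjusted p = 0.0764). DESeq2 called it, and so did the fit without clones 129 and G4. Tpi1, triose phosphate isomerase, rose by 1.08 ± 0.22 (adjusted p = 0.0107), from 192 to 236 CPM to 332 to 600.3 CPM. Gpi1, which converts glucose 6-phosphate to fructose 6-phosphate, overlapped at 545 to 1169 against 383 to 653 CPM (adjusted p = 0.383).

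Of the 5 genes of lower glycolysis, which carries triose phosphates on to pyruvate, only Eno1 passed. Eno1, the widespread enolase, was at 741, 1348, 1039, 1602 and 1597 CPM in astrocytes and 691, 571 and 655 CPM in NPCs, a rise of 0.99 ± 0.29 (log2, adjusted p = 0.0396) that was lost with several of the libraries left out. Pkm, pyruvate kinase, showed the opposite order of means, with 782, 838, 788, 930.4 and 1222 CPM in astrocytes against 1612, 1006 and 2299 CPM in NPCs. Only astrocyte clone mE6 reached into the NPC range, and the difference of -0.85 ± 0.29 did not pass (adjusted p = 0.0636). It passed in 4 of 14 other fits (DESeq2, scaling by library size alone, without astrocyte clone mE6, and without NPC clone mG2). Gapdh was at 138 to 202 CPM in astrocytes and 90.9 to 126 in NPCs, without overlap (adjusted p = 0.0698), Pgam1 overlapped (adjusted p = 0.407), and the neuronal enolase Eno2 was at 1.73 to 15.1 against 5.43 to 8.88 CPM (adjusted p = 0.863).

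Several of these genes have near-identical copies elsewhere in the mouse genome. Of the transcript of Gapdh, 88.6% matched at least 1 of 49 other loci over at least 75 bases and 95% identity, and the shares were 85.6% for Eno1, 88.2% for Gpi1, 98.5% for Ldhb, 94.7% for Pgam1 and 54.0% for Tpi1. Gapdh took only 0.0080 to 0.0195% of the reads on genes. By its default the counting left out reads placed at several loci, so the levels of these 6 genes may be too low. How reads of the copies were placed was not examined, and their part in the differences was not tested. Of the 6, 3 were higher in astrocytes, as were 13 of the other 25 tested members. The summed level of the members without these 6 was 5104 to 9159 CPM in astrocytes and 2624 to 4251 CPM in NPCs, again without overlap.

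Both lactate dehydrogenase genes were abundant in all clones. Ldha, whose subunit is known to favour lactate formation, was at 738, 670.3, 762, 485 and 1084 CPM in astrocyte clones 129, C2, G4, mC3 and mE6 and at 586, 468 and 569 CPM in NPC clones F5, mG2 and mG6. Clone mC3 lay within the NPC range, and the difference of 0.47 ± 0.27 (log2) did not pass (adjusted p = 0.228). Ldhb, whose subunit favours the return to pyruvate, was at 268, 412, 469.6, 366 and 444 CPM against 280.4, 163 and 171 CPM and rose by 0.94 ± 0.26 (adjusted p = 0.0335). NPC clone F5 overlapped with astrocyte clone 129.

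Among the regulators of glycolysis, 3 of 5 rose and the other 2 did not pass the test. Pdk1 and Pdk2 encode pyruvate dehydrogenase kinases, which hold pyruvate back from the mitochondrial citrate cycle. Pdk1 was at 56.5, 54.9, 66.3, 55.4 and 50.4 CPM in astrocyte clones 129, C2, G4, mC3 and mE6 and at 4.26, 8.54 and 13.7 CPM in NPC clones F5, mG2 and mG6, a rise of 2.68 ± 0.37 (log2, adjusted p = 0.00202). Pdk2 was at 77.1, 112, 101, 80.5 and 98.4 CPM against 24.5, 15.8 and 20.7 CPM, a rise of 2.21 ± 0.22 (adjusted p = 0.000407). In both, the astrocyte clones lay within 1.45-fold of each other and all stood above every NPC clone. Pfkfb2 and Pfkfb3 make and degrade fructose 2,6-bisphosphate, the activator of phosphofructokinase. Pfkfb2 rose by 1.58 ± 0.29 (adjusted p = 0.00674), from 8.41, 15.3 and 12.6 CPM in NPCs to 49.7, 28.9, 41.5, 32.9 and 28.01 CPM in astrocytes. Pfkfb3 split the astrocyte clones, with 205, 118 and 197 CPM in the female clones 129, C2 and G4 and 37.3 and 45.9 CPM in the male clones mC3 and mE6, around NPC values of 60.2, 74.2 and 129 CPM (adjusted p = 0.617). Its mean difference of 0.46 turned to -0.30 with sex in the fit and to -0.38 without clones 129 and G4. Pdk4, the kinase raised in fasting, was listed at 1.35 CPM or less in every poly(A) library.

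Of the 7 genes of glycogen turnover 5 rose, and Pygb had the largest difference of the 31 members tested. Pygb, the brain glycogen phosphorylase that releases glucose 1-phosphate from glycogen, stood at 785, 1169, 730.4, 1064 and 1061 CPM in astrocyte clones 129, C2, G4, mC3 and mE6 and at 67.5, 84.4 and 48.4 CPM in NPC clones F5, mG2 and mG6. The rise was 3.85 ± 0.30 (log2, SE), or 14.4-fold, with an adjusted p of 0.000126. Pygm, the muscle phosphorylase that astrocytes also express, was at 146, 207, 157, 266 and 370.1 CPM against 23.3, 7.76 and 45.1 CPM (3.17 ± 0.61, adjusted p = 0.00786). Per kilobase of transcript, the astrocyte mean of Pygb (246 CPM per kb) was above that of Pygm (79.7), as were the NPC means (17.1 and 8.83), but in NPC clone mG6 Pygm was 55.9% of the sum of the pair per kilobase.

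Of the genes for building glycogen, Ppp1r3c, Gys1 and Gbe1 rose. Ppp1r3c, a scaffold that brings protein phosphatase 1 to glycogen and so activates glycogen synthase, was at 70.5, 49.9, 87.0, 83.3 and 134 CPM in astrocytes and 10.5, 16.9 and 21.2 CPM in NPCs (2.39 ± 0.37, adjusted p = 0.00351). Gys1, the glycogen synthase of most tissues, rose less but evenly, from 47.0, 44.4 and 39.8 CPM to 80.9, 79.1, 84.03, 76.5 and 66.1 CPM (0.82 ± 0.15, adjusted p = 0.00590). Gbe1, the branching enzyme, rose by 1.66 ± 0.48 (adjusted p = 0.0358), with astrocyte clone 129 (26.8 CPM) inside the NPC range of 18.6 to 29.2 CPM and the other astrocyte clones at 54.9 to 119 CPM. The phosphoglucomutases, which link glucose 1-phosphate and glucose 6-phosphate, did not pass, with Pgm1 at an adjusted p of 0.505 and Pgm2 at 0.0866.

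The calls were not equally firm. In each of 14 other fits 9 of the 16 genes were called: Pfkl, Pfkp, Pdk1, Pdk2, Pfkfb2, Pygb, Pygm, Gys1 and Ppp1r3c. The other 7 (Slc16a1, Hk1, Aldoa, Tpi1, Eno1, Ldhb and Gbe1) lost their call when some library was left out, and without NPC clone mG2 only the 9 remained. Per kilobase of transcript, the members with the highest astrocyte means were Eno1 (624 CPM per kb), Aldoa (547), Ldha (424) and Pkm (411), and those with the highest NPC means were Pkm (738), Eno1 (315) and Ldha (307). This order holds for reads as counted, and the levels of Eno1, Gapdh, Gpi1, Ldhb, Pgam1 and Tpi1 may be too low. The same may hold in part for Ldha, with 19.2% of its transcript shared.

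Because many members moved together, the stretch from 250 bases before to 50 bases after each transcription start was searched for ACGTG on either strand. This is a form of the core that hypoxia-inducible factors bind, and it also lies inside the E-box CACGTG. Some matches counted, such as those of Aldoc, Hk1 and Gapdh, do not lie within the 250 bases before the start. RefSeq promoters on GRCm38.p6, 300 bases each, were at hand for 31 of the 32 genes, 47 promoters in all. ACGTG was in 24 of them (51.1%), from 20 genes, and in 19.6% of all 32851 promoters. Promoters of the same gene can overlap, so a match can be counted more than once, as for Aldoa. CACGTG was in 14.9% of the members' promoters and 7.15% of all. GGCGCC, a string of G and C alone and so no match in base content, was in 23.4% and 11.9%, and TTCNNNGAA, the site of STAT factors, in 4.26% and 8.30%. A match is a string of letters and not a site in use. Shown are the 250 bases before the start for Pygb and Pfkp, the 2 members with the largest rise, and for Ppp1r3c, which also rose, and Ldha, which did not pass, the last pair chosen after their values were seen. All are on the strand of the gene, with ACGTG or its reverse complement CACGT in capitals, at chr2:150786546-150786795 (plus strand), chr13:6648772-6649021 (minus), chr19:36736605-36736854 (minus) and chr7:46845554-46845803 (plus).
Pygb: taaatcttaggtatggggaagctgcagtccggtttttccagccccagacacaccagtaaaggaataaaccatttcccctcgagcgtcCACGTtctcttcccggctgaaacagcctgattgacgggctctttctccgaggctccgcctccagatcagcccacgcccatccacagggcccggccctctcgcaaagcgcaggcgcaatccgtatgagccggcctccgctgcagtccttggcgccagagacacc
Pfkp: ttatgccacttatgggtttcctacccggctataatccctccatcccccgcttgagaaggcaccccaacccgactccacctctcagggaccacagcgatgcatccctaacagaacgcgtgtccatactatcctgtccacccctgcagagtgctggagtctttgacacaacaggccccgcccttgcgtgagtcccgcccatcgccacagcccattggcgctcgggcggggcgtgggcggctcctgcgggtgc
Ppp1r3c: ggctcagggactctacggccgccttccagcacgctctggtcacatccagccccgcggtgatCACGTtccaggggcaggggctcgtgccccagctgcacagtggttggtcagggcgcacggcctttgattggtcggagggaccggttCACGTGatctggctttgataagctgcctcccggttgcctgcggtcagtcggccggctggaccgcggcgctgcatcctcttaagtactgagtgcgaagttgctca
Ldha: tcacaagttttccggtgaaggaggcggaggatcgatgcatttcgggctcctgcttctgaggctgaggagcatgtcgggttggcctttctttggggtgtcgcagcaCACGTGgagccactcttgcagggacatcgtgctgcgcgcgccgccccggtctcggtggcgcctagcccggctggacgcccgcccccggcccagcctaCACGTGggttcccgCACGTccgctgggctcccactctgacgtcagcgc
The string did not go with the calls: it was in a listed promoter of 8 of the 16 genes that rose and of 12 of the 15 genes with a promoter that did not. The 8 that rose without it were Pfkl, Pfkp, Tpi1, Eno1, Ldhb, Pdk1, Gys1 and Gbe1.

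The balance between alternative enzymes was compared as a ratio of read counts within each library, which needs no scaling between libraries. Of 13 pairs, the 2 cell types did not overlap in 4, each time with the named numerator lower in astrocytes. Single genes lay wholly above or below in 16.4 and 16.3% of all tested, so 4 of 13 is close to what single genes show. The Hk2 to Hk1 ratio was 0.0763, 0.0199, 0.0980, 0.0171 and 0.0133 in astrocyte clones 129, C2, G4, mC3 and mE6 and 0.241, 0.457 and 0.132 in NPC clones F5, mG2 and mG6, 7.63-fold lower in astrocytes. Per kilobase, Hk2 was 1.02 to 7.07% of the sum of the pair in astrocytes and 9.31 to 26.2% in NPCs. The Pfkm to Pfkl ratio was 0.735, 1.45, 1.61, 1.51 and 2.215 against 2.72, 2.57 and 2.64 (1.86-fold lower), so the NPC clones were nearly equal and clone 129 was lowest.

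The Pfkfb3 to Pfkfb2 ratio was 4.13, 4.07, 4.73, 1.13 and 1.64 in astrocytes and 7.15, 4.83 and 10.2 in NPCs (2.60-fold lower), with clone G4 close to NPC clone mG2. The Slc16a3 to Slc16a1 ratio also did not overlap, but Slc16a3 had so few reads that its size carries little. In the exact permutation test, two-sided over the 56 ways to assign the libraries, each of the 4 had p = 0.0357, the smallest p the design allows, not adjusted over the 13 pairs. The other 9 pairs overlapped, among them Ldhb to Ldha (0.363 to 0.755 against 0.3002 to 0.478, exact p = 0.143) and Aldoc to Aldoa (0.323 to 2.74 against 0.165 to 0.646, exact p = 0.429), where astrocyte clone mE6 was the only library with more Aldoc than Aldoa reads.

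**Figure D3:**
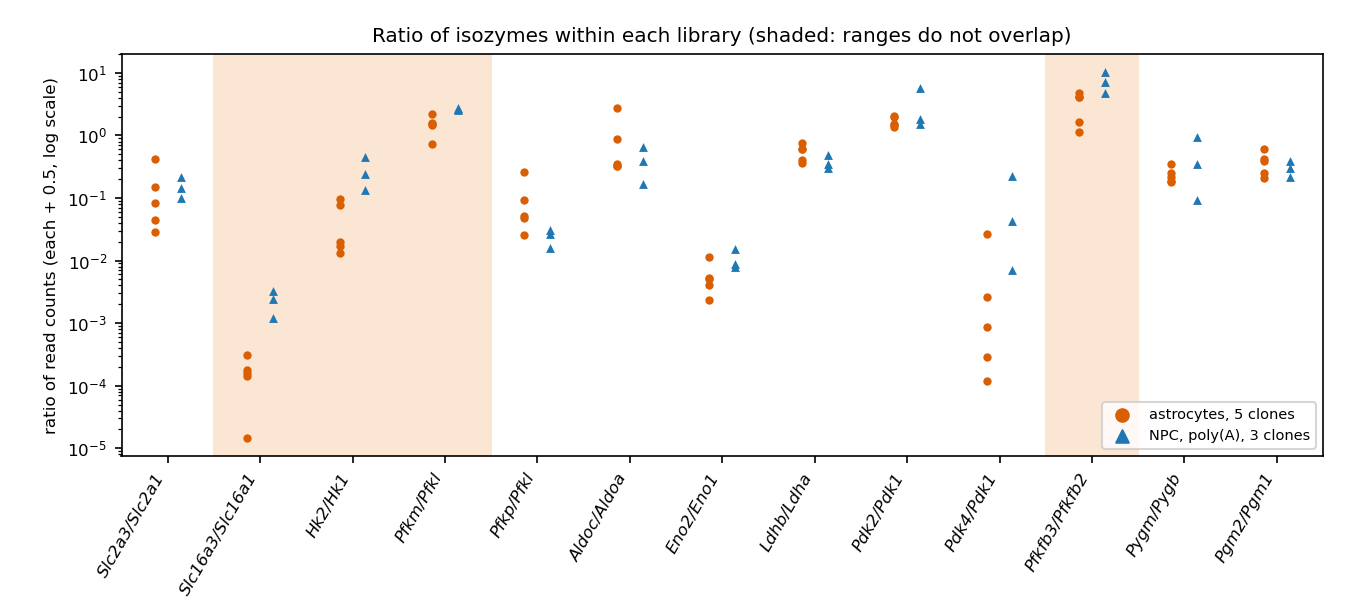
Ratio of read counts of the 2 genes of each pair in each poly(A) library on a log axis, with 5 astrocyte clones as circles and 3 NPC clones as triangles. The shaded pairs are the 4 whose ranges do not overlap, and in each the astrocytes are lower.

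The allelic expression ratio is the percentage of allele-specific reads that carry the Cast allele. With at least 20 such reads, 351 of the 384 combinations of gene and clone had a value. Values from 35 to 65% were called biallelic, those under 15% or over 85% monoallelic and the rest biased. Of the 351, 273 (77.78%) were biallelic, 62 biased and 16 monoallelic, beside 81.99% biallelic over all autosomal genes. In 14 genes every clone with a value was biallelic, among them Hk1, Pfkl, Aldoa, Gapdh, Pkm, Ldhb, Pygb and Gys1. The 16 monoallelic values came from 7 genes (Ldha, Aldoc, Eno1, Eno2, Slc2a3, Pfkp and Pdk4), and 7 of them rested on fewer than 200 reads. The share of monoallelic values over all autosomal genes was not computed, so whether 16 is many or few cannot be told. Slc16a3 never reached 20 reads, and Tpi1 did so in 3 clones only, with at most 30 reads.

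**Figure D4:**
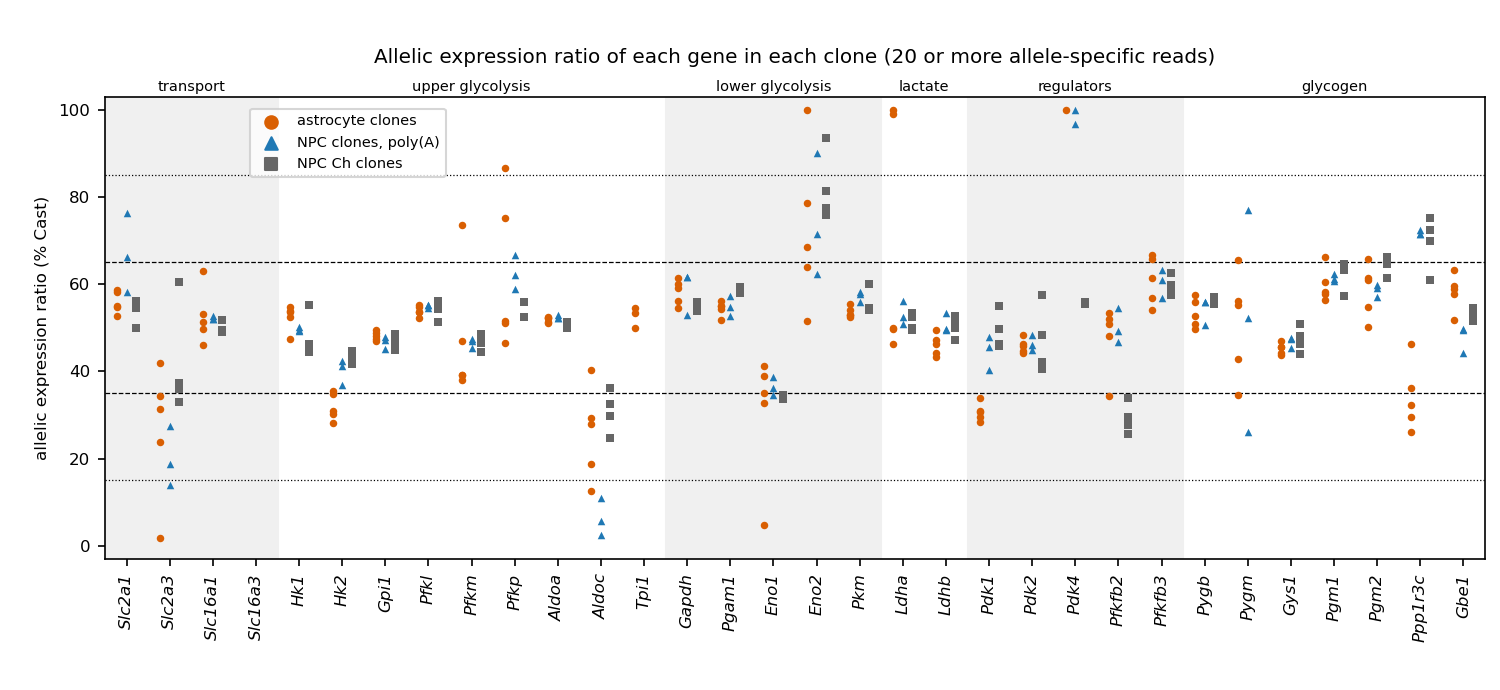
Percent of allele-specific reads from the Cast allele for each gene and clone with at least 20 such reads, for astrocyte clones (circles), poly(A) NPC clones (triangles) and Ch clones (squares, both libraries summed). Dashed lines mark 35 and 65%, and dotted lines 15 and 85%. Ldha has 2 astrocyte clones near 100% and all others near 50%, and Ppp1r3c has all astrocytes below all NPCs.

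Ldha was either balanced or fully Cast. Astrocyte clone 129 had 36575 Cast and 16 129-allele reads, 99.96% Cast (Wilson 95% interval 99.93 to 99.97%), and astrocyte clone mC3 had 19922 and 193 reads, 99.04% (98.90 to 99.17%). The other 3 astrocyte clones were at 49.9% (C2), 46.3% (G4) and 49.8% (mE6). The NPC clones were at 50.8% (F5), 56.2% (mG2) and 52.5% (mG6), and the Ch clones at 49.5 to 53.4%. In clones 129 and mC3 the median gene of the fixed 20 Mb window that holds Ldha was at 50.2 and 49.4% Cast, so the window was balanced in the same clones. Ldha lies at chr7:46842274-46855627 (RefSeq, GRCm38.p6), and 19.2% of its transcript has near-identical copies elsewhere.

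In total Ldha, clone 129 (738 CPM) was in the middle of the astrocytes, and mC3 (485 CPM) was the lowest of them but above NPC clone mG2 (468 CPM). On the CPM scale, the Cast allele gave 392 in clone 129 and 252 in mC3, and 181, 185 and 293 in C2, G4 and mE6. The 129 allele gave 0.172 and 2.45 CPM in clones 129 and mC3 and 182, 214 and 295 in the others. Clone 129 had the highest Cast-allele level of the 8 poly(A) clones, and mC3 the third highest.

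**Figure D5:**
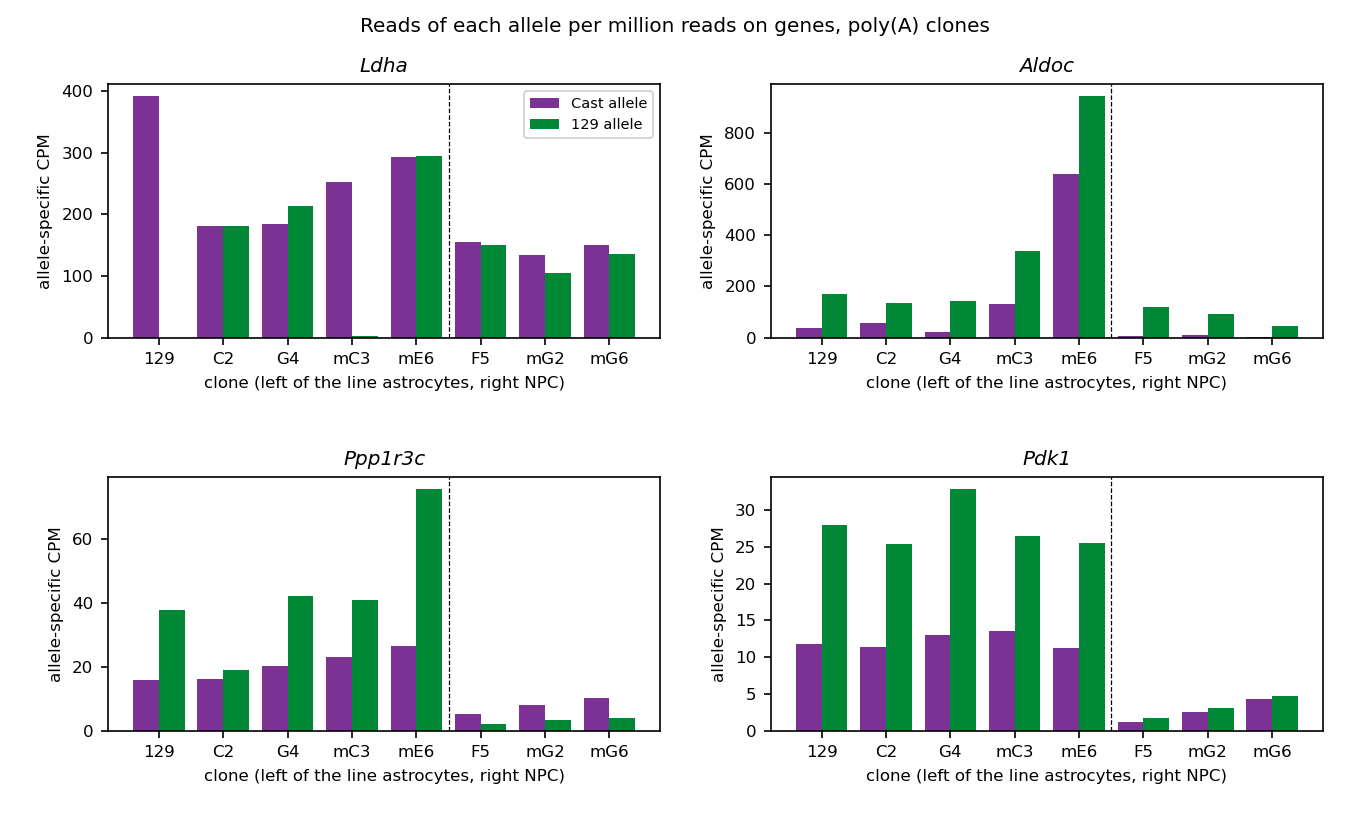
Allele-specific reads of Ldha, Aldoc, Ppp1r3c and Pdk1 in CPM, for the Cast (purple) and the 129 allele (green) in 5 astrocyte clones and 3 poly(A) NPC clones, 1 library each. Ldha has almost no 129-allele bar in clones 129 and mC3 (0.172 and 2.45 CPM), and the 129 allele of Ppp1r3c is the lower bar in NPCs and the higher bar in astrocytes.

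Aldoc leaned to the 129 allele in all 12 clones. In astrocyte clones 129, C2, G4, mC3 and mE6 it was 18.7, 29.3, 12.5, 27.9 and 40.4% Cast, in NPC clones F5, mG2 and mG6 it was 5.61, 11 and 2.51%, and in Ch3, Ch5, Ch7 and Ch8 it was 24.6, 32.6, 29.9 and 36.1%, each with an interval no wider than 1.80 points. All poly(A) NPC clones were below all astrocyte clones, while the Ch clones, also NPCs but from another preparation, lay among the astrocytes. The difference between the 2 cell types in log2 of Cast over 129 reads was 2.48 ± 0.66 and did not pass (adjusted p = 0.125). NPC clone mG6, the lowest in Cast share, was also the lowest in total Aldoc (71.3 CPM), and astrocyte clone mE6, the highest in share, was the highest in total (2383 CPM). Between these the order differed. NPC clone F5 had a lower share than mG2 but a higher total (205 against 169 CPM), and astrocyte clone 129 a lower share than C2 but a higher total (316 against 293 CPM). A link of share to total was not tested. Over the poly(A) clones the lean to the 129 allele was -2.51 ± 0.55 (log2 of Cast over 129, adjusted p = 0.00695).

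Whether the ratio differed between astrocytes and poly(A) NPCs was tested as an allele by cell type term in edgeR over 10098 autosomal genes, of which 1.08% were called. Of 29 members tested, 2 were called, both with less Cast in astrocytes. Ppp1r3c was 29.6, 46.3, 32.3, 36.2 and 26.0% Cast in astrocyte clones 129, C2, G4, mC3 and mE6 and 72.5, 71.6 and 71.4% in NPC clones F5, mG2 and mG6, a difference of -2.32 ± 0.28 (log2, adjusted p = 0.0202). The groups did not overlap. The Ch clones, from another preparation and not part of this test, were at 60.9 to 75.1%, on the side of the NPCs. The mean of its 129 allele was 43.0 allele-specific CPM in astrocytes and 3.11 in NPCs, a 13.8-fold ratio, and that of its Cast allele was 20.4 and 7.88, a 2.59-fold ratio.

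Pdk1 was 29.6, 30.8, 28.5, 34.0 and 30.6% Cast in the astrocyte clones and 40.3, 45.5 and 47.95% in the NPC clones, a difference of -0.87 ± 0.12 (adjusted p = 0.0302). Its 129 allele was 8.76-fold and its Cast allele 4.55-fold higher in the astrocyte mean, and the Ch clones were at 45.9 to 54.9% on 95 to 181 reads each. Both calls were lost when any one NPC clone was left out and without clones 129 and G4, and that of Pdk1 also without astrocyte clone 129, C2, G4 or mE6. Over 11 other settings the adjusted p ranged from 0.0145 to 0.103 for Ppp1r3c and from 0.0287 to 0.115 for Pdk1, and the sign stayed the same. The windows that hold them were balanced, at 48.1 to 50.6% Cast for both genes in the 8 poly(A) clones. Since the 2 cell types came from different clones, cell type and clone set cannot be told apart here.

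Several ratios went with the chromosome around the gene in that clone. Eno1 was 4.83% Cast in astrocyte clone G4 (4.61 to 5.05%), where its window had a median of 7.27%, and 32.8 to 41.2% in the other 11 clones. Pfkfb2 was 34.3% in astrocyte clone 129 and 25.6 to 33.8% in the Ch clones, with window medians of 34.6% and 32.01 to 32.8%, and 46.8 to 54.6% elsewhere. Slc16a1 was 63.0% in clone G4, with a window of 65%, and 45.9 to 53.25% in the other clones.

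Other ratios stood apart from balanced windows, though Slc2a3 and Pfkm lie near an edge of theirs. Slc2a3 was 1.89% Cast in astrocyte clone G4 (5 of 264 reads, interval 0.81 to 4.36%) and 13.9 to 60.5% elsewhere. Pfkm was 73.7% in astrocyte clone C2 and 38.0 to 48.5% in the other 11 clones. Pfkp was 86.5% in clone 129 and 75.1% in C2, and 46.6 to 66.7% in the others with a value. Eno2 had 51 Cast reads and 0 129-allele reads in clone 129 (lower bound of its interval 93.0%), and was 51.55 to 93.5% elsewhere. By a separate rule, which takes a count of 0 as up to 3 reads, the 129 share of Eno2 in clone 129 could reach 5.88%. Pygm ranged from 26.0 to 77.1% within the 3 poly(A) NPC clones. These intervals cover counting error only.

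A mean lean to 1 parental allele over the 8 poly(A) clones was called in 18 of 29 members, 11 to Cast and 7 to 129, beside 16.6 and 24.9% of all genes tested. The 129 allele was always the maternal one, so strain and parent of origin cannot be told apart in these leans. Many of these leans were small and even: Pfkl was 52.1 to 55.3% Cast in these clones (0.25 ± 0.03, log2 of Cast over 129, adjusted p = 0.000208) and Aldoa 51.15 to 52.8% (0.12 ± 0.02, adjusted p = 0.00357). Pgm1, at 56.4 to 66.2%, leaned more (0.61 ± 0.06, adjusted p = 0.000158), and Slc2a1, Gapdh, Pgam1, Eno2, Pkm, Pfkfb3, Pygb and Pgm2 leaned to Cast too, Pygb only in the mean (49.6 to 57.6%). Hk2 leaned to 129 with 28.2 to 42.4% Cast (-0.89 ± 0.11, adjusted p = 0.000362), as did Slc2a3, Gpi1, Aldoc, Pdk1, Pdk2 and Gys1. Eno1, at 32.8 to 41.2% outside clone G4, did not pass with all clones (adjusted p = 0.0532) and passed without clones 129 and G4. Over 11 other settings 16 of the 18 kept their call in each, and those of Eno2 and Pygb were lost in 6 and 5.

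The 4 Ch clones are the only ones with 2 libraries each. In these, 8 of 32 members differed in level among clones (edgeR, adjusted p under 0.05), beside 16.6% of all 17095 genes tested. Ldhb was at 216 and 219 CPM in the libraries of Ch3 and at 94.8 and 108 (Ch5), 84.2 and 84.8 (Ch7) and 93.6 and 116 (Ch8) in the others (adjusted p = 4.45e-05). Ppp1r3c was highest in Ch7 (33.5 and 35.8 CPM) and lowest in Ch5 (18.5 in both, adjusted p = 0.000301). Pdk4 was at 1.38 and 1.54 CPM in Ch5 and 1.13 and 1.07 in Ch8, against 0.0740 to 0.202 in Ch3 and Ch7 (adjusted p = 0.000903). Slc2a3, Pgm1, Pygb, Gapdh and Ldha were the other 5, with clone means 1.29 to 2.13-fold apart. Over 11 other settings the call of Ldha was lost in 7 and that of Gapdh in 4, those of Pygb, Slc2a3 and Pgm1 in 1 or 2, and those of Ldhb, Pdk4 and Ppp1r3c in none. Pygm, at 0.230 to 1.04 CPM, was not called.

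The allelic ratio differed among Ch clones in 5 of 26 members tested, beside 9.22% of all genes. For Aldoc the libraries gave 25.9 and 23.7% Cast in Ch3, 33.1 and 32.05% in Ch5, 30.7 and 29.0% in Ch7 and 36.7 and 35.6% in Ch8 (adjusted p = 4.52e-36), so the clones did not overlap. Pkm was at 58.4 and 61.0% in Ch3 and 52.8 to 55.7% in the 3 other clones (adjusted p = 7.73e-11). Ppp1r3c was lowest in Ch7, at 62.8 and 58.95%, against 64.1 to 77.3% (adjusted p = 2.76e-05). The differences of Ldha (47.8 to 54.0%, adjusted p = 0.00633) and Gpi1 (44.7 to 50.9%, adjusted p = 0.0178) were a few points wide. Over 11 other settings the call of Gpi1 was lost in 5, that of Ldha in 3 and that of Ppp1r3c in 1.

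Other genes of glucose metabolism gave a mixed picture. The counts of each list stand beside 13% of all tested genes that were higher in astrocytes and 12.6% that were lower. Of 22 other genes of glycolysis and sugar transport tested, 6 were higher in astrocytes and 2 lower. Fbp1, the fructose bisphosphatase of gluconeogenesis, was higher by 4.62, Slc2a13, a myo-inositol carrier, by 3.14 and Slc2a4, the insulin-responsive glucose carrier, by 2.83 (log2), while Minpp1 fell by 0.42. Pgk1, phosphoglycerate kinase, was at 457 to 788 CPM against 323 to 439 without passing (adjusted p = 0.0731), and neither did Bsg, the chaperone of the lactate carriers (adjusted p = 0.184).

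Of 15 genes of pyruvate entry into mitochondria, 5 rose and 1 fell. Pcx, pyruvate carboxylase, rose by 1.79, Pdp1, the phosphatase that opposes the pyruvate dehydrogenase kinases, by 1.52 and Mpc2, a subunit of the mitochondrial pyruvate carrier, by 1.10, while Me3, a mitochondrial malic enzyme, fell by 4.87. The partner subunit Mpc1 (adjusted p = 0.0528) and Pdha1 of pyruvate dehydrogenase (adjusted p = 0.407) did not pass. The median difference of 23 other glycogen genes was 0.08, beside 0.08 over all tested genes. Of the 23, 3 rose, close to the 13% of all tested genes, and the rest did not pass. Among them were Ppp1r3f (1.51) and Epm2a, the glycogen phosphatase laforin (1.21), while Ugp2, which makes UDP-glucose (adjusted p = 0.0735), and the liver phosphorylase Pygl (adjusted p = 0.163) did not pass. Gyg, glycogenin, which primes new glycogen, was at 17.1 to 57.9 CPM in astrocytes and 58.2 to 81.2 in NPCs, a difference of -0.92 that did not pass (adjusted p = 0.0889). It was named after its value was seen.

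Of 19 targets of hypoxia-inducible factors outside glycolysis, and the factors themselves, 8 rose and the rest did not pass. Over all tested genes 13% were higher and 12.6% were lower. P4ha2, a collagen prolyl hydroxylase, rose by 5.57 from at most 0.0492 CPM, Ndrg1 by 3.21 and Epas1, which encodes HIF-2 alpha, by 3.09, and Hif1a did not pass (279.5 to 576 against 220.0 to 344 CPM, adjusted p = 0.143). Of 17 citrate cycle genes, 1 rose (Idh3a, by 0.78) and 1 fell (Suclg2, by 1.30), and of 9 pentose phosphate genes 1 rose (Tkt, by 1.20) and 1 fell (Rpia, by 0.80). The summed level of 5 fibroblast markers was 219 CPM in astrocyte clone C2, nearly all of it Col1a1, and 2.86 to 34.9 CPM in the other poly(A) libraries, that of 6 neuron markers 465 to 1361 against 974 to 1790 CPM, and that of 6 oligodendrocyte lineage markers 317 to 1706 against 1780.5 to 2067 CPM. The summed levels of 5 microglial and of 4 endothelial markers were at most 11.5 and 6.06 CPM in these libraries. The part of other cell types in the differences was not tested.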

How the data were processed

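RNA was sequenced from 16 libraries of clonal F1 hybrid mouse cells (stranded paired-end libraries). Per the labels and the study's methods, the authors aligned reads to GRCm38/mm10 with strain-variant positions masked, using TopHat2 2.1.0 and Bowtie2, split reads by allele with SNPsplit and counted them per gene with featureCounts 1.5.1. The annotation version is not given in the sources used here. The deposited values were counts of all reads, 129 reads and Cast reads per gene, and the authors' fraction of allele-specific reads, which matched the counts and served only as a check. By its default, this counting leaves out reads placed at several loci, so genes with near-identical copies may be under-counted. Pgm1 and Pgm2 were told apart by chromosome, since older tables swap their names.

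Expression was compared with edgeR 4.0.16 (R 4.3.3) in its quasi-likelihood test, with TMM factors and filterByExpr, on all genes. CPM use the TMM factors, set separately for the poly(A) and the Ch libraries. Allelic ratios were compared in edgeR on Cast and 129 counts with a term for each library, over autosomal genes that had 20 or more reads given to an allele in each library. Errors after ± are standard errors on the log2 scale and p-values are Benjamini-Hochberg adjusted over all genes tested. Clones with 1 library stand for themselves, so p-values measure the spread between clones, and between Ch libraries the spread may be technical. Intervals are Wilson 95% intervals. Isozyme ratios added 0.5 to each count. Lengths were those of the longest coding transcript of each gene in the GENCODE annotation, and shared sequence was found with blastn 2.17.0. Values came from the 8 poly(A) libraries with 69925081 to 105892734 reads and the 8 Ch libraries with 20871111 to 30920672. The fits were also run on simulated counts with a fixed spread, which does not show how they behave at the clone spread of these data. Alternatives were DESeq2 1.42.0, other scaling, no low-count filter, sex as a covariate, other read minimums, each library left out and, added after the data were seen, clones 129 and G4 left out.

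The 32 genes and the other lists were chosen with earlier results of these data known. All 32 could be named. From each other list the 3 largest differences past the threshold in each direction were named, along with Pgk1, Bsg, Mpc1, Mpc2, Pdha1, Hif1a, Ugp2 and Pygl, and a few genes of these lists are not reported here. The replicate numbers of the Ch libraries share only a number, and the same-clone libraries differed beyond sampling noise (chi-square per degree of freedom 10.6 to 60.9).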

Additional observations from a re-analysis of the deposited data

Results flagged for a closer look

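In 61 groups of 5 astrocyte values, 6 had 1 clone set apart from the others by more than 0.71 of the whole range, and chance gives about 1 such group in 20. Pfkl was at 88.46 CPM in clone C2 and 154.0 to 172.0 CPM in the others. Pfkm was 73.66% Cast in clone C2 and 38.02 to 46.96% in the others. Aldoc was at 2383 CPM in clone mE6, against 250 to 706.4 CPM. Eno1 was 4.826% Cast in clone G4, against 32.83 to 41.21%. Pdk4 was at 1.351 CPM in clone mE6, against 0 to 0.1394 CPM. Pfkfb2 was 34.26% Cast in clone 129, against 48.02 to 53.38%.

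The allelic ratio differed between astrocytes and poly(A) NPCs in 2 genes, by -0.87 for Pdk1 and -2.32 for Ppp1r3c in log2 of Cast over 129. Among the 4 Ch clones it differed for Aldoc (adjusted p = 4.52e-36), Pkm (7.73e-11), Ppp1r3c (2.76e-05), Ldha (0.00633) and Gpi1 (0.0178). All of these come from edgeR's quasi-likelihood test.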

How the results depend on the processing

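The 16 members higher in astrocytes became 18 with DESeq2, 16 with RLE factors or library size only, 14 without the low-count filter, 17 with sex as a covariate and 18 without astrocyte clones 129 and G4. Leaving out each of the 8 poly(A) libraries gave 9 (without NPC clone mG2) to 17 members higher and 0 to 1 lower. In all genes it gave 1000 to 2505 higher, against 2360, and 1269 to 2344 lower, against 2284. In place of 0 members, 1 was lower with DESeq2 and with library size only (Pkm both times) and 1 without clones 129 and G4 (Hk2). Pkm was also lower without astrocyte clone mE6 and without NPC clone mG2. The median of all genes stood between 0.03 and 0.08 under every scaling. The difference of Pfkfb3 turned to -0.30 with sex as a covariate and to -0.38 without clones 129 and G4, and that of Eno2, 0.17 with all libraries, ranged from -0.28 (without clone C2) to 0.43 when 1 was left out. None of these 3 passed in either direction.

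The 2 members whose allelic ratio differed between cell types ranged from 0 to 2 when a library was left out, and the 109 genes from 5 (without NPC clone F5) to 105. Without clones 129 and G4 there were 0 members and 59 genes. Strain bias gave 9 to 11 members to Cast and 7 to 8 to 129 in every setting. With limits of 40 and 60% in place of 35 and 65%, 66.67% of values were biallelic. Among 13 isozyme pairs, 4 to 5 did not overlap over 9 settings.

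Among the Ch clones, leaving out a library gave 1509 to 3244 genes and 4 to 10 members that differed in level (against 2834 and 8), and 3 to 6 members that differed in allelic ratio (against 5), both lowest without a Ch7 library. Without the low-count filter 4361 genes differed in level. The replicate numbers did not pair the libraries (correlations of deviations -0.356 to 0.445), and with the replicate block 3391 genes and 10 members differed in level and 854 genes and 5 members in allelic ratio. The depth of the Ch libraries limits allelic values: Pygm, Slc16a3 and Tpi1 had too few reads there. The cause of these changes was not tested.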
